A study of Canis lupus familiaris with 12 samples.

Results

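The miRNAs described here are those best known from the nervous system, and they were read in a canine mammary gland tumor line and its tamoxifen-resistant derivative. They were chosen by name: cfa-miR-9, cfa-miR-124, cfa-miR-128, cfa-miR-129, cfa-miR-137, cfa-miR-138, cfa-miR-153 and cfa-miR-218. Of these 8 names 7 are listed exactly, and miR-138 is listed as miR-138a and miR-138b, which makes 9 entries of the 453 miRNAs in the count table. CHMm is a line from the metastatic lesion (pleural effusion) of a dog with a mammary tumor. CHMmTAM was derived from it by raising the tamoxifen (TAM) concentration over 10 months until the cells proliferated at 10 μM, followed by 1 month at 10 μM and 1 week without the drug. Both lines were grown in phenol-red-free medium with charcoal-stripped serum, and 3 small RNA libraries were made of each. The paper also lists hydroxytamoxifen in the medium and does not say for which lines. CHMmTAM is a single resistant derivative, so resistance and drift between the lines during culture cannot be told apart. The labels do not say whether the libraries of 1 line came from separate cultures, and the study's remark on independent experiments does not single out the sequencing, so p-values measure the spread between these libraries, which may be technical.

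A miRNA is a short RNA that guides the Argonaute protein to partly complementary messenger RNAs and lowers their translation and stability. miR-124 is the classic neuronal miRNA and represses non-neuronal transcripts, including that of the splicing regulator PTBP1. miR-9 acts in neural progenitors and neurogenesis, and in human breast cancer it is known as a repressor of E-cadherin. miR-128, miR-129, miR-137, miR-138 and miR-153 are enriched in neurons, and miR-218 is abundant in motor neurons. Several of them, miR-9 and miR-218 among them, are also made outside the nervous system.

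The totals lay between 7512659 and 12482211 counts per library, and miR-21 alone took from 50.2% to 54.5% of them. At these totals 3 counts, taken as the smallest number that the depth can show, correspond to between 0.24 and 0.399 CPM (the counts of a miRNA as a share of its library, on a common scale), and this limit covers counting error only. The label "nervous-system" describes where these miRNAs are best known, not the cells. The epithelial miRNAs miR-200a, miR-200b, miR-200c, miR-141, miR-429, miR-203 and miR-205 were all detected. They summed to between 24457 and 26853 CPM of all counts in CHMm and between 21958 and 23739 CPM in CHMmTAM. Their log2 fold changes of CHMmTAM over CHMm were mixed. These were -0.66 for miR-205, -0.24 for miR-203, -0.09 for miR-141 and -0.06 for miR-200c, but 0.36 for miR-429, 0.27 for miR-200a and 0.21 for miR-200b. The nervous-system markers miR-9, miR-124, miR-219-5p and miR-219-3p each had at least 1 count. Their sum was between 1092 and 1125.5 CPM of all counts in CHMm and between 1020 and 1097 CPM in CHMmTAM. miR-9 carried that sum, while the neuronal marker miR-124 had 1 count in all 6 libraries together.

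In CHMmTAM, miR-218 fell to 26.4% of its level in CHMm, miR-128 to 55.0% and miR-153 to 66.0%, while the rare miR-129 went from 1 count in the 3 CHMm libraries to 13 counts in the 3 CHMmTAM libraries. miR-9, the other abundant member, and both miR-138 entries did not pass the test. In the fit over all 284 miRNAs with at least 10 counts in total, 7 of the 9 entries were tested. Differential expression was called at a false discovery rate (FDR) below 0.05 together with a log2 fold change above 1 or below -1. By this rule 2 of the 7 tested entries were called, where 11.3% of all tested miRNAs were: miR-129 higher (background 5.99%) and miR-218 lower (background 5.28%). miR-129 met the minimum of 10 counts only through its counts in CHMmTAM, so its place among the tested entries depended on its difference, and the counts of members are given as a description. By FDR alone 4 of the 7 passed against 44.0% of all tested, with 1 higher (background 25.4%) and 3 lower (background 18.7%). The values of the 3 CHMm libraries and the 3 CHMmTAM libraries did not overlap for 4 of the 7, and for 51.8% of all tested miRNAs. The median log2 fold change was -0.09 over the 7 entries and 0.06 over all tested miRNAs.

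**Figure D1:**
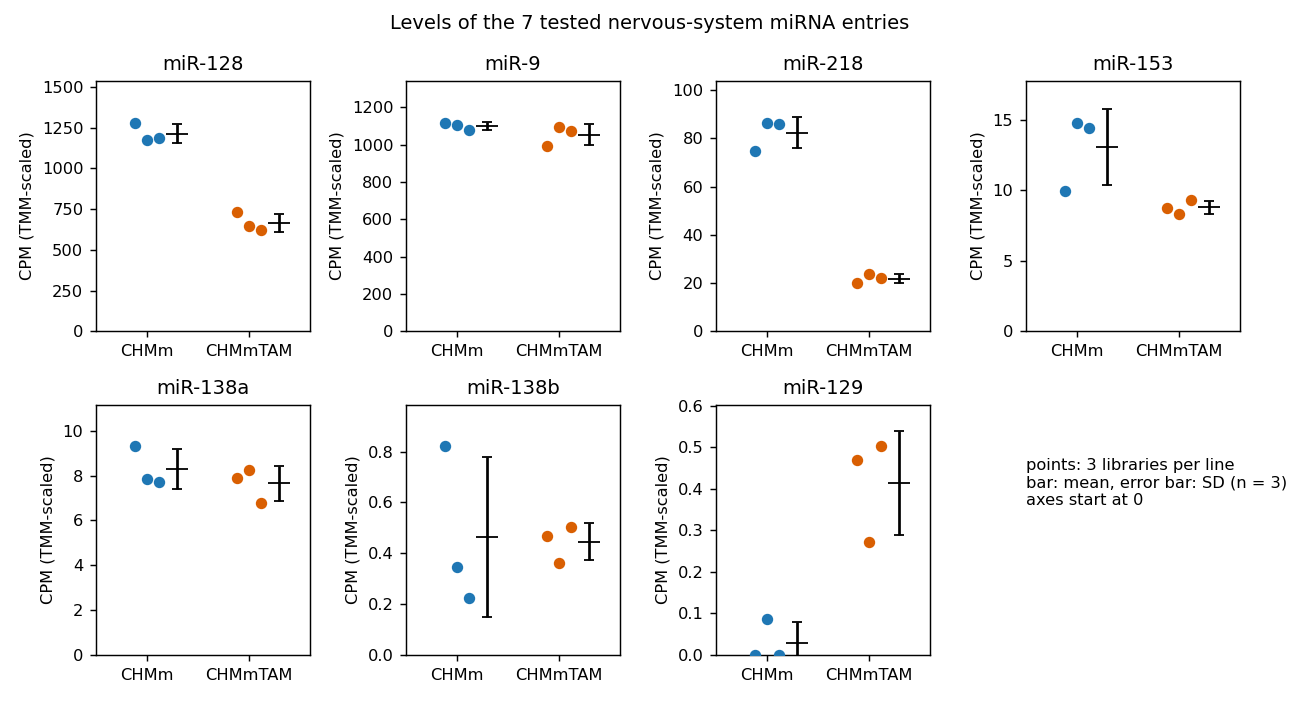
TMM-scaled CPM (vertical axes, each from 0) of the 7 tested entries in the 3 CHMm libraries (blue) and the 3 CHMmTAM libraries (orange), with the mean and SD in black. The lines are apart for miR-128, miR-218, miR-153 and miR-129 and overlap for miR-9, miR-138a and miR-138b; miR-138b and miR-129 rest on at most 6 counts per library.

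miR-218 is made from 2 genes and is known from motor neuron development. Its counts were 548, 1005 and 768 for CHMm and 254, 261 and 175 for CHMmTAM, in the order of the replicate numbers. Scaled by edgeR's TMM method, these were 74.9, 86.5 and 85.8 CPM in CHMm and 19.9, 23.7 and 21.99 CPM in CHMmTAM. Each CHMm value was thus above 3 times each CHMmTAM value. The means were 82.4 ± 6.51 CPM (SD, n = 3) and 21.8 ± 1.89 CPM (SD, n = 3). The log2 fold change was -1.92 (standard error 0.10, 95% interval -2.12 to -1.73) and the FDR was 1.53e-69 in the edgeR quasi-likelihood fit, adjusted by the Benjamini-Hochberg method. This placed miR-218 at rank 8 by FDR among the 284 tested miRNAs. By abundance it moved from rank 109 in CHMm to rank 138 in CHMmTAM. Its share of all counts was lowest among CHMm libraries in replicate 1, where the 95% Wilson interval ran from 67.1 to 79.3 CPM, and highest among CHMmTAM libraries in replicate 2, where it ran from 20.9 to 26.6 CPM. The difference is therefore larger than counting error and larger than the spread between replicates.

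miR-128, which dampens neuronal excitability, was the most abundant member in CHMm. It had 1281, 1174 and 1184 CPM in the CHMm libraries and 729.8, 647.7 and 622.5 CPM in the CHMmTAM libraries. The lowest CHMm library was well above the highest CHMmTAM library. The mean was 1213 ± 58.8 CPM (SD, n = 3) for CHMm libraries and 667 ± 56.1 CPM (SD, n = 3) for those of CHMmTAM. The log2 fold change was -0.86 (standard error 0.07) and the FDR was 1.58e-32 in the edgeR quasi-likelihood fit, while the 95% interval of -0.998 to -0.73 ended close to the fold-change threshold. It passed that threshold under upper-quartile normalization, at -1.10. miR-128 moved from rank 45 by abundance in CHMm to rank 59 in CHMmTAM.

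miR-153, which is known to target synaptic vesicle transcripts, was less abundant. Its CHMm libraries held 73, 172 and 129 counts, and its CHMmTAM libraries 112, 92 and 74 counts. After scaling these were 9.98, 14.8 and 14.4 CPM in CHMm and 8.77, 8.34 and 9.30 CPM in CHMmTAM. CHMm replicate 1 lay close to the CHMmTAM libraries, and its 95% Wilson interval of 7.73 to 12.2 CPM of all counts overlapped that of CHMmTAM replicate 3, 7.24 to 11.4 CPM. The means were 13.1 ± 2.68 CPM (SD, n = 3) and 8.80 ± 0.479 CPM (SD, n = 3). The log2 fold change was -0.60 (standard error 0.15, 95% interval -0.90 to -0.30) and the FDR was 0.00033 in the edgeR quasi-likelihood fit. It was -0.74 without CHMm replicate 1 and -0.48 without CHMm replicate 2, where the FDR was 0.0419 by the same test.

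miR-9 was close to miR-128 in abundance in CHMm and was the most abundant member in CHMmTAM. Its libraries held 1117, 1104 and 1077 CPM in CHMm and 992.5, 1096 and 1072 CPM in CHMmTAM. CHMmTAM replicate 1 was the lowest, and the lines overlapped. The means were 1099 ± 20.6 CPM (SD, n = 3) and 1053 ± 54.1 CPM (SD, n = 3), with a log2 fold change of -0.06 (95% interval -0.20 to 0.07) and an FDR of 0.50 in the edgeR quasi-likelihood fit. miR-9 ranked 47 by abundance in CHMm and 46 in CHMmTAM. Under upper-quartile normalization its log2 fold change was -0.30 and its FDR in that fit was 0.00012. That scaling took the median of the log2 fold changes over the tested miRNAs from 0.06 to -0.18. Relative to each scaling's median, miR-9 was between -0.123 and -0.121 in log2 fold change with TMM and the 4 other scalings.

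miR-138, which limits the size of dendritic spines, is listed as 2 entries. miR-138a had 68, 91 and 69 counts in CHMm and 101, 91 and 54 counts in CHMmTAM. These correspond to 8.28 ± 0.882 CPM (SD, n = 3) and 7.65 ± 0.767 CPM (SD, n = 3), and the lines overlapped. Its log2 fold change was -0.09 (95% interval -0.43 to 0.25) and the FDR was 0.73 in the edgeR quasi-likelihood fit. miR-138b had 6, 4 and 2 counts in CHMm and 6, 4 and 4 counts in CHMmTAM. At this depth its log2 fold change of 0.03 had a 95% interval of -1.33 to 1.39, so that even a 2-fold change in either direction was not excluded. In each library miR-138a had between 11.3 and 34.5 times the counts of miR-138b. How reads that match both entries were counted is not given in the sources used here, and the split between them is uncertain.

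miR-129, a neuronal miRNA with a part in the scaling of synaptic strength, was at the limit of detection. Its CHMm libraries held 0, 1 and 0 counts, and its CHMmTAM libraries 6, 3 and 4 counts. All 3 CHMmTAM libraries were above all 3 CHMm libraries, but CHMmTAM replicate 2 was only at the limit of 3 counts. The 95% Wilson intervals of the shares overlapped between the lines in every pair of libraries. The lowest upper end in CHMm was 0.436 CPM of all counts (replicate 3). The highest lower end in CHMmTAM was 0.220 CPM (replicate 1). The ratio of its summed rates was 11.4, with a 95% exact counting interval from 1.71 to 484.8. Because 13 of its 14 counts were in CHMmTAM, it passed the filter only through the line where it was higher, and its test was not independent of that filter. The log2 fold change was 3.13 (standard error 1.21) with an FDR of 0.0238 in the edgeR quasi-likelihood fit, and 3.13 with an FDR of 0.0347 in the fit without the filter. Both fits used the same 14 counts, so neither FDR is taken as support for a difference. The log2 fold change was 5.02 without CHMm replicate 2, the only CHMm library with a count. Without CHMm replicate 3 the FDR was 0.0854 by the same test, and DESeq2 gave it no adjusted p. With a mean of 0.415 ± 0.125 CPM (SD, n = 3) in CHMmTAM, miR-129 was far below miR-218 in both lines. miR-124 had 1 count, in CHMmTAM replicate 1, and miR-137, a regulator of neuronal differentiation, had 0 counts in all 6 libraries. The upper ends of the 95% Wilson intervals of miR-137 were between 0.308 and 0.511 CPM of all counts. Both miR-124 and miR-137 were below the limit of 3 counts per library in each line, and no comparison of them was made.

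**Figure D2:**
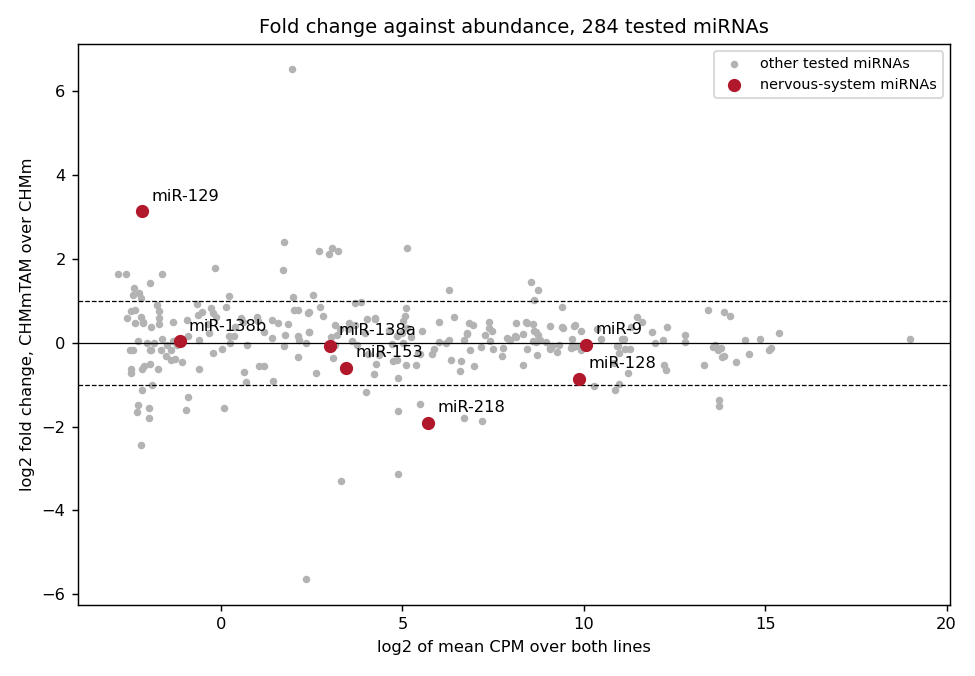
Log2 fold change of CHMmTAM over CHMm (vertical axis) against the log2 of the mean CPM over both lines (horizontal axis) for the 284 tested miRNAs, with the 7 tested nervous-system entries in red and dashed lines at -1 and 1. miR-218 lies below the lower dashed line at -1.92, miR-128 just above it at -0.86, and miR-129 at 3.13 lies at the low-abundance end.

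The members together took from 0.240% to 0.243% of all counts in CHMm and from 0.170% to 0.180% in CHMmTAM. Of their counts, miR-9 and miR-128 made up from 95.4% to 97.9% in each library. Ratios of counts within a library do not depend on the scaling between libraries. There were 0.872, 0.940 and 0.909 reads of miR-9 per read of miR-128 in the CHMm libraries and 1.36, 1.69 and 1.72 in the CHMmTAM libraries. The order of the 2 most abundant members was thus inverted in CHMmTAM. Per 1000 reads of miR-9 there were 67.1, 78.4 and 79.7 reads of miR-218 in CHMm and 20.0, 21.6 and 20.5 in CHMmTAM. The corresponding ratio of miR-153 ran from 8.94 to 13.4 in CHMm and from 7.61 to 8.83 in CHMmTAM, where the lowest CHMm library almost met the highest CHMmTAM library. That of miR-138a overlapped, at 7.09 to 8.33 in CHMm and 6.33 to 7.97 in CHMmTAM. miR-218 was also lower relative to the other falling members, with 5.84 to 7.51 reads per read of miR-153 in CHMm and 2.27 to 2.84 in CHMmTAM, and 0.0585 to 0.0737 reads per read of miR-128 in CHMm and 0.0272 to 0.0365 in CHMmTAM. These ratios show unequal change among the members and do not show that any of them was constant.

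**Figure D3:**
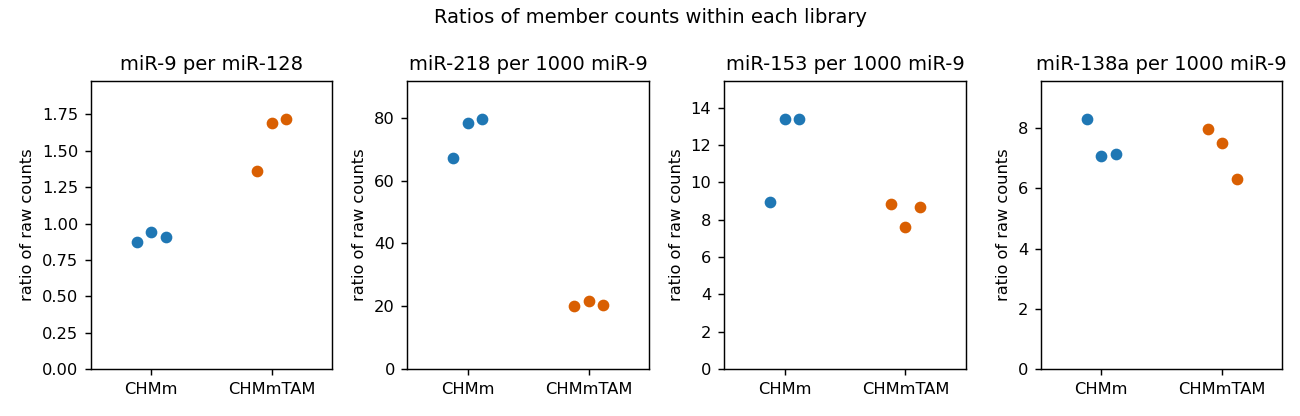
Ratios of raw counts within each library (vertical axes, each from 0) in the 3 CHMm libraries (blue) and the 3 CHMmTAM libraries (orange). miR-9 per miR-128 was 0.872 to 0.940 in CHMm and 1.36 to 1.72 in CHMmTAM, miR-218 per 1000 miR-9 was 67.1 to 79.7 and 20.0 to 21.6, and the lines overlap for miR-138a.

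A wider list of 25 names of miRNAs enriched in brain or neurons was compared, of which 23 names matched 27 entries of the table. Only 13 of the 27 entries had at least 10 counts in total, and 4 had 0 counts in every library, so most of this list was near or below detection. None of the 13 was called by both thresholds in the edgeR quasi-likelihood fit or in the 17 alternative fits, where 11.3% of all tested miRNAs were called in the former. By FDR alone 5 of the 13 passed against 44.0% of all tested, 2 higher (background 25.4%) and 3 lower (background 18.7%), which does not set the list apart from the background. The same 5 had an unadjusted p below 0.05. The median log2 fold change over the 13 tested entries was 0.03. The most abundant was miR-7, a miRNA of neuroendocrine cells, at 15919 ± 277 CPM (SD, n = 3) in the parental line and 12518 ± 1602 CPM (SD, n = 3) in the resistant line. miR-7 fell by 0.35 on the log2 scale and the FDR was 2.32e-07 in the edgeR quasi-likelihood fit. miR-708 was the second most abundant at 2123 ± 135.5 CPM in CHMm, and it fell by 0.49 on the log2 scale (FDR = 3.59e-12 by the same test). miR-874 fell by 0.56 on the log2 scale (FDR = 4.87e-11 by the same test). miR-149 rose by 0.26 on the log2 scale (FDR = 0.000997 by the same test), but was at 0.02 under upper-quartile normalization, where its FDR was 0.865. miR-132, which is induced by neuronal activity, rose by 0.41 on the log2 scale (FDR = 0.0331 by the same test), and its FDR was above the threshold in 7 of the alternatives, at 0.0511 to 0.465. miR-212, which is made together with miR-132, had 0, 13 and 8 counts in CHMm and 13, 14 and 9 counts in CHMmTAM and did not pass (FDR = 0.331 by the same test). miR-219-5p, known from oligodendrocyte differentiation, had 4.88 ± 0.208 CPM in CHMm and 3.80 ± 0.656 CPM in CHMmTAM (FDR = 0.230 by the same test).

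**Figure D4:**
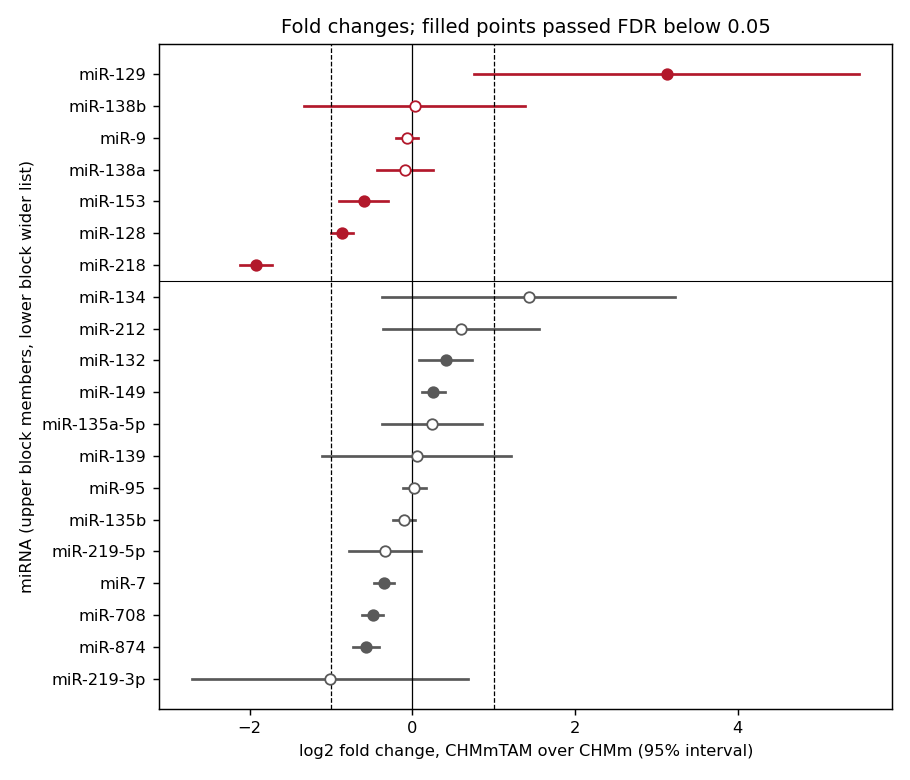
Log2 fold changes of CHMmTAM over CHMm with 95% intervals (horizontal axis) for the 7 tested members (red, upper block) and the 13 tested entries of the wider list (grey, lower block); filled points passed FDR below 0.05 and dashed lines mark -1 and 1. miR-218 at -1.92 lies apart from miR-128 at -0.86 and miR-153 at -0.60, and the widest intervals belong to entries with few counts such as miR-129.

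Among other miRNA lists, the muscle and blood lists summed to more in CHMmTAM than in CHMm, and the mesenchymal list to less. Of the 7 muscle miRNAs, only miR-1, miR-133a, miR-133b and miR-499 were tested. The first 3 of these were called higher in CHMmTAM, where 5.99% of all tested miRNAs were. miR-206, miR-208a and miR-208b had too few counts to be tested. miR-208b had 3, 1 and 0 counts in CHMm and 0 in each CHMmTAM library, and miR-208a had 0 in every library. The muscle list summed to 281 to 306 CPM of all counts in CHMm and 415 to 429.5 CPM in CHMmTAM. Most of this sum was miR-499, which was not called by both thresholds (log2 fold change 0.48, FDR = 3.84e-10 by edgeR's quasi-likelihood test). Of the 6 blood miRNAs, only miR-142, miR-223, miR-451 and miR-486 were tested, as miR-144 and miR-150 had too few counts. Of those tested, 1 was called higher (miR-486) against the same background of 5.99%. miR-142 passed FDR alone (log2 fold change 0.77, FDR = 0.00359 by the same test), and miR-223 and miR-451 did not pass. The blood list summed to 4.99 to 6.12 CPM in CHMm and 12.2 to 15.0 CPM in CHMmTAM, with none at 0 in every library. The mesenchymal list of 5 entries had no call and summed to 39.1 to 50.6 CPM in CHMm and 25.1 to 29.6 CPM in CHMmTAM. That sum was carried by miR-199 (log2 fold change -0.85, FDR = 2.54e-13 by the same test). The other entries did not pass and were mixed. These were miR-214 at -0.55 and miR-145 at -0.17, but miR-127 at 0.58 and miR-143 at 0.54. The part of other cells in the fall of miR-218 or the higher counts of miR-129 was not tested.

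In the RefSeq genes of the dog assembly UU_Cfam_GSD_1.0, the 9 entries matched 15 miRNA genes, of which 5 lie within the span of a protein-coding gene. These 5 belong to miR-218, miR-128 and miR-153. MIR218-1 lies within SLIT2 and MIR218-2 within SLIT3, which encode secreted axon guidance proteins. MIR128-1 lies within R3HDM1 and MIR128-2 within ARPP21, and MIR153 lies within PTPRN2, which encodes a protein of dense-core vesicles. The 3 genes of miR-9, 2 of miR-124, 2 of miR-129, 1 of miR-137 and 1 each of miR-138a and miR-138b lie outside protein-coding spans, although MIR9-3 and MIR129-2 lie within those of non-coding genes. No member has another miRNA gene within 10 kb. The strand was not compared, and the count table does not tell which gene of a member its reads came from. The mRNAs of the host genes were not analysed here.

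Across the 6 libraries, the miRNAs most like a member were sought by Pearson's correlation of log2 CPM among the 196 miRNAs with at least 10 counts in every library. The libraries form 2 lines, so for miR-218, miR-128 and miR-153 a high correlation mainly reflects a shared difference between lines. This holds less for miR-9 and miR-138a, whose lines overlapped. The correlations are given as a description. miR-218 was most like miR-375 (r = 0.998), miR-874 (r = 0.998) and miR-146b (r = 0.997), whose log2 fold changes were -1.79, -0.56 and -1.63. miR-128 was most like miR-92b, miR-582 and miR-99b (r from 0.991 to 0.996), and miR-153 most like let-7c, miR-1271 and miR-328 (r from 0.946 to 0.959). The nearest to miR-9 were miR-16, miR-29b and miR-8802 (r from 0.858 to 0.920). For miR-138a they were miR-130a (r = 0.887), miR-219-5p (r = 0.729) and miR-331 (r = 0.695).

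**Figure D5:**
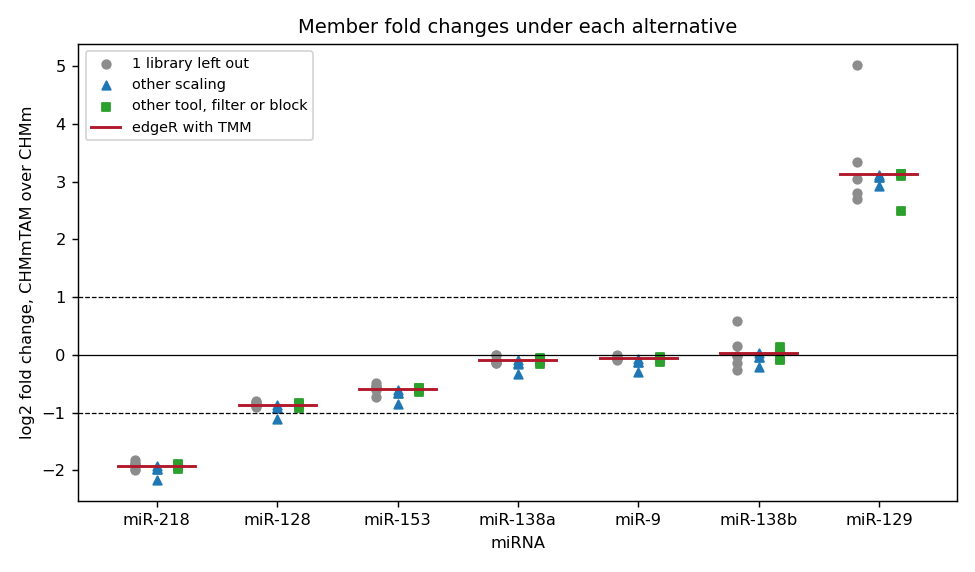
Log2 fold changes of the 7 tested members (vertical axis) with edgeR and TMM (red bars) and under each alternative: 1 library left out (grey circles), another scaling (blue triangles), and another tool, filter or block (green squares); dashed lines mark -1 and 1. miR-218 stays between -2.17 and -1.83, miR-128 crosses -1 under a single scaling (-1.10), and miR-129 spreads from 2.49 to 5.02.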

How the data were processed

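Small RNA of 3 CHMm and 3 CHMmTAM libraries was extracted with Trizol, purified with a miRNeasy kit and sequenced on a HiSeq platform. The table deposited by the authors holds raw, unnormalized read counts for each miRNA entry. The submitters' processing notes name BWA, HISAT2 2.0.4 and CanFam3.1 without a role. The miRNA database, trimming and treatment of reads with several matches are not given in the sources used here. Reads of similar miRNAs may be split or counted at 1 entry. The 6 RNA-seq samples and the mature miRNA sequences were not analysed here.

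Libraries were grouped by their labels. miRNAs with at least 10 counts in total were fitted with edgeR 4.0.16 in R 4.3.3 (TMM, quasi-likelihood test, no block, Benjamini-Hochberg adjustment over 284 miRNAs), after a test on simulated data. Standard errors come from the coefficient and its F statistic. Intervals of shares are 95% Wilson intervals and cover counting error only. Totals ranged from 7512659 to 12482211 counts. DESeq2 1.42.0, limma-voom (limma 3.58.1), other scalings and filters, a replicate block and leaving out each library were alternatives. Tables used Python 3.11.15 with SciPy 1.17.1. Named were all members, entries of the wider list past FDR and its 2 most abundant, and the 3 miRNAs most correlated with each member above 10 counts per library. miR-212 and miR-219-5p were named after their values were seen. Members and lists were chosen with earlier results of these data known. As an exact permutation test of 3 against 3 cannot go below p = 0.1, none was used. The reference assembly is not the build in the notes, so no coordinates are given.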

Additional observations from a re-analysis of the deposited data

How the results depend on the processing

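The log2 fold change of miR-218 kept its direction and its call in all 17 alternative fits, between -2.17 and -1.83, and those of miR-128 and miR-153 kept an FDR below 0.05 in all 17. Upper-quartile normalization moved miR-128 to -1.10, past the fold-change threshold, so that 2 members were called lower in place of 1. It gave 12 higher and 22 lower calls over all miRNAs (35.3% higher), against 17 higher and 15 lower with TMM (53.1% higher). miR-129 was not tested under the default filter of edgeR, under 10 counts in every library or without CHMmTAM replicate 1, and the DESeq2 Wald test gave it no adjusted p. Leaving out each other library gave it log2 fold changes of 2.69 to 5.02 and 0 to 1 members called higher. miR-9 was between -0.092 and 0.0027 (the latter without CHMmTAM replicate 1) when each library was left out. miR-138b, at 0.03 with TMM and at most 6 counts per library, turned to -0.032 under RLE size factors and -0.029 with TMM factors that left out the 10 most abundant miRNAs, to -0.21 under upper-quartile normalization, to -0.083 with DESeq2 and to -0.067 with the replicate block, and ran from -0.27 to 0.58 when each library was left out. By FDR alone 125 miRNAs passed, 72 higher and 53 lower, with 3 members lower, among them miR-128 (-0.86) and miR-153 (-0.60), and with 2 entries of the wider list higher and 3 lower. The cause of these shifts was not tested, beyond the settings' own construction. The deviations of same-numbered libraries had correlations of 0.06, 0.46 and -0.31. These showed no steady pairing by number, but with 3 libraries per line they cannot exclude it. The replicate block changed no member's call.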
